A study of Mus musculus with 38 samples.

Results

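Npy and Penk are 2 of the 13260 genes in the deposited expression table, and they were followed through all 38 libraries and 8 groups of it. Both encode precursors of neuropeptides. They were chosen by their behaviour in these same data, Npy for its lower level in osteoprogenitors of myeloma-bearing mice and Penk for its different level in endothelial cells of those mice. These 2 differences are therefore given as descriptions with no test.

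Neuropeptide Y is cut from its precursor by prohormone convertases, trimmed by carboxypeptidase E and amidated before it acts on G protein-coupled Y receptors. It is best known from sympathetic nerves and the brain, and cells of the osteoblast lineage also make it and carry its receptors. Proenkephalin is cut in the same way into enkephalins, which act on the delta and mu opioid receptors. Met-enkephalin also binds the opioid growth factor receptor, a separate protein encoded by Ogfr.

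The libraries came from C57Bl/KaLwRij mice aged 8 to 10 weeks that were injected into a vein with phosphate-buffered saline (healthy) or 5TGM1-GFP cells (myeloma-bearing) and were culled on day 23. 5TGM1-GFP is a single mouse myeloma cell line that carries green fluorescent protein and grows in mice of this strain. Aliquots of 100 cells were sorted from enzyme-digested hind limb bone as CD31+ endothelial cells, Sca1+ALCAM- stromal progenitors and ALCAM+Sca1- osteoprogenitors, and GFP+ myeloma cells were sorted from the bone lining and from the central marrow. There were 5 libraries in each group except 4 in each group of osteoprogenitors, and replicates were stated to come from different mice. The labels name no transgene, deleted allele or further treatment for any of these mice.

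Levels are given in RPKM, reads scaled by transcript length in kilobases and by library size in units of 1e6 reads. Reads on genes numbered 9735031 to 34883291 per library. Read numbers were recovered from the table, and since amplified copies are not separate molecules they describe counting error only. The sorted types carried their own markers. All 7 endothelial markers summed to between 6365 and 21175 RPKM in endothelial cells and to at most 243 RPKM in the other groups, and the 5 myeloma markers to 3157 to 9840 RPKM in myeloma cells and to no more than 35.6 RPKM in the niche groups. The 10 osteoprogenitor markers summed to 8349 to 64512 RPKM in osteoprogenitors and at most 1328 RPKM elsewhere. The 6 stromal progenitor markers did not single out their own cells, with 1105 to 3112 RPKM in stromal progenitors against 2724 to 8974 RPKM in endothelial cells, where Ly6a (Sca1) is also made. Nor did mature osteoblast and osteocyte markers (11 of 13 measured here) tell the progenitor types apart. They summed to 10555 to 33410 RPKM in stromal progenitors and 11691 to 38879 RPKM in osteoprogenitors. The libraries that stood apart were endothelial cells I and J of myeloma-bearing mice, with 6273 and 6933 RPKM summed over the 11 of 13 mature osteoblast and osteocyte markers measured here against at most 510 RPKM in the other 8, and stromal progenitors L (healthy) and E (myeloma-bearing), with 7273 and 8119 RPKM over the 6 of 10 neutrophil markers measured here against at most 292 RPKM in the other 8.

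Npy lies on the plus strand at chr6:49822710-49829507 (GRCm38, ENSMUSG00000029819.6) with no other annotated gene overlapping it. Penk lies on the minus strand at chr4:4133531-4138819 (ENSMUSG00000045573.9). The first 499 bases of the Penk transcript's locus overlap A830012C17Rik, a non-coding transcript on the opposite strand that was not analysed here. The strand of the reads is not given in the sources used here, so reads from this overlap cannot be assigned to either gene.

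Npy was among the most abundant transcripts of stromal progenitors. In healthy mice it stood at 1439 RPKM in library C, 3543 in L, 2980 in M, 1487 in N and 4012 in O. In myeloma-bearing mice it stood at 1951 RPKM in D, 1738 in E, 2238 in G, 2075 in I and 1562 in J. Every one of these 10 libraries held at least 14539 Npy reads, and Npy ranked between the 21st and the 51st gene by RPKM in each of them. The highest library was 2.79-fold above the lowest.

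The mean in stromal progenitors was 2692 ± 1180 RPKM (SD, n = 5) in healthy and 1913 ± 268 RPKM (SD, n = 5) in myeloma-bearing mice, and the ranges overlapped. All 5 myeloma-bearing libraries lay between the healthy libraries N and M. The log2 difference of -0.38 (myeloma-bearing minus healthy, on log2(RPKM + 1), standard error 0.30, 95% interval -1.01 to 0.26) did not pass in limma (adjusted p = 0.976), and the exact two-sided permutation test gave p = 0.270 (0.533 adjusted over 6 tests). Without libraries L and E, which carried the neutrophil transcripts, the difference was -0.21. Of all 8747 genes tested in stromal progenitors, 0% passed both thresholds used here, an adjusted p below 0.1 and an absolute log2 difference above 1.

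In osteoprogenitors Npy was far less even. The healthy libraries held 326 RPKM (L), 972 RPKM (M), 62.2 RPKM (N) and 1937 RPKM (O). The myeloma-bearing libraries held 0.181 RPKM (D), 18.6 RPKM (G), 109 RPKM (I) and 14.7 RPKM (J). The groups overlapped, since library I of the myeloma-bearing mice lay above library N of the healthy mice, and the other 3 myeloma-bearing libraries lay below every healthy library. Library D held a single Npy read, whereas library O held 19407.

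The mean was 824 ± 834 RPKM (SD, n = 4) in healthy and 35.5 ± 49.5 RPKM (SD, n = 4) in myeloma-bearing mice, a ratio of 23.2. This ratio was 12.8 without healthy library O and 74.0 without myeloma-bearing library I. The log2 difference was -4.98, the difference on which Npy was chosen. In this comparison 0.0115% of the 8664 genes tested passed the thresholds, a single gene named here after its value was seen, the interferon-inducible Ifi27l2a (log2 difference 6.35, standard error 0.84, adjusted p = 0.018 in limma). With no filter on low values and with voom-limma 0 genes passed (564 and 391 had an unadjusted p below 0.05), and the count was 0 to 1 when any library was left out. In bulk libraries a smaller number of Npy-positive cells among the 100 and less Npy RNA per cell cannot be told apart.

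**Figure D1:**
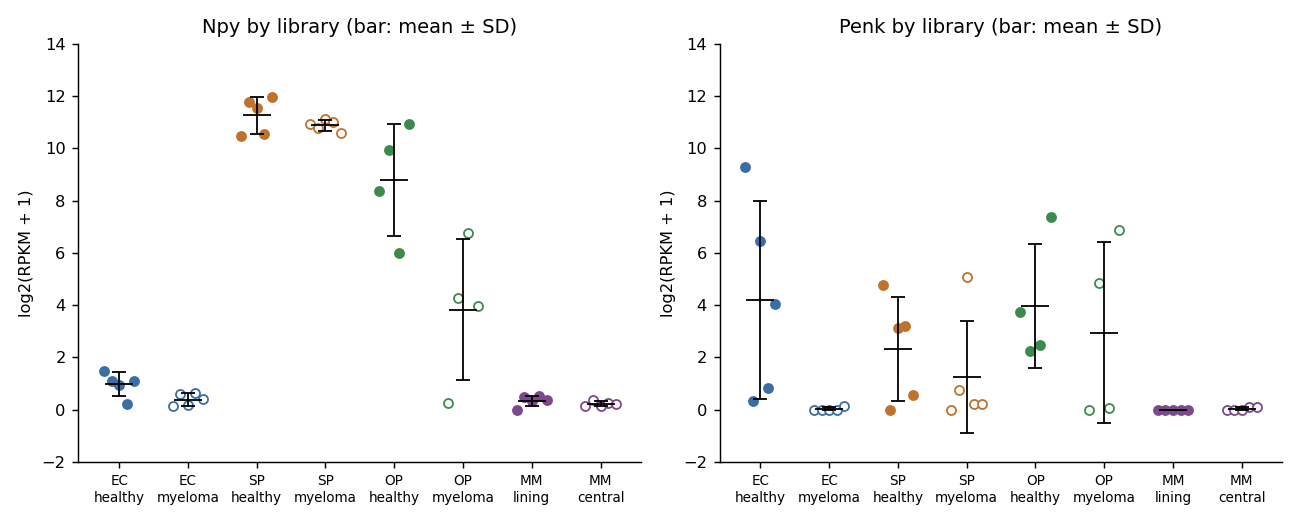
Level of Npy (left) and Penk (right) in every library as log2(RPKM + 1), by group, with EC for endothelial cells, SP for stromal progenitors, OP for osteoprogenitors and MM for myeloma cells. Each point is a library (filled for healthy mice and bone lining, open for myeloma-bearing mice and central marrow) and bars give the mean ± SD. Npy is high and even in the 10 SP libraries and spread widely in the 8 OP libraries, and Penk is spread widely in every niche group except EC of myeloma-bearing mice.

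The SD of log2(RPKM + 1) within groups is given as a description. For Npy it came to 0.52 in stromal progenitors, where the median of the 8747 genes tested, most of them at lower levels, was 1.401. In osteoprogenitors it came to 2.15 in healthy and 2.70 in myeloma-bearing mice, the libraries on which Npy was chosen.

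Libraries of the 2 progenitor types share letters, although nothing in the labels ties a letter to 1 animal. In healthy mice osteoprogenitor Npy came to 9.21% of the stromal progenitor level with the same letter for L, 32.6% for M, 4.18% for N and 48.3% for O. In myeloma-bearing mice it came to 0.00928% for D, 0.829% for G, 5.24% for I and 0.939% for J. The osteoprogenitor library was the lower of the pair for all 8 letters, and the share for I lay above the share for N.

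**Figure D2:**
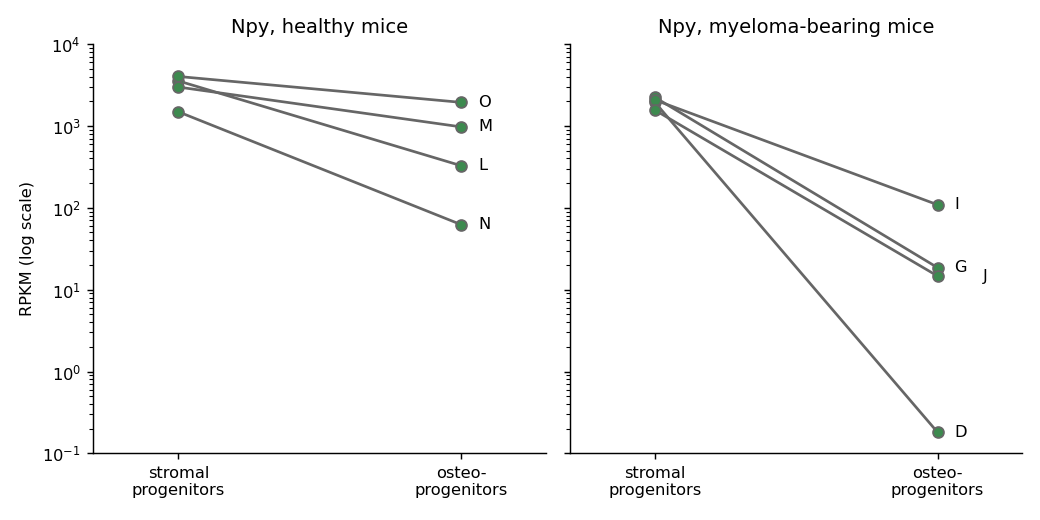
Npy in RPKM on a log axis in stromal progenitors and osteoprogenitors, with libraries of the same letter joined, for healthy (left) and myeloma-bearing (right) mice. All 8 lines fall from left to right, to between 62.2 and 1937 RPKM in healthy and between 0.181 and 109 RPKM in myeloma-bearing mice.

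Endothelial and myeloma cells held Npy only at the level of single reads. Endothelial libraries of healthy mice stood at 1.80 RPKM (C), 1.15 (L), 0.941 (M), 0.173 (N) and 1.13 (O), from 2 to 17 reads. Those of myeloma-bearing mice stood at 0.0983 RPKM (D), 0.510 (E), 0.113 (G), 0.547 (I) and 0.319 (J), from 1 to 6 reads. The groups overlapped through healthy library N. The difference of -0.59 on log2(RPKM + 1) was followed by the exact two-sided permutation test only (p = 0.0397, adjusted p = 0.238), because 3 of the 10 libraries were above 1 RPKM and limma tested genes above 1 RPKM in at least 4. Here 0% of the 7880 genes tested passed in limma.

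Myeloma cells ranged from 0 to 0.432 RPKM of Npy in the bone lining and from 0.0857 to 0.271 RPKM in the central marrow, with at most 6 reads in a library. The means of 0.268 ± 0.169 and 0.160 ± 0.0771 RPKM (SD, n = 5 each) did not differ at the threshold in the exact permutation test (p = 0.270, adjusted p = 0.533), and the ranges overlapped. The mean of the 10 endothelial libraries was 0.0295% of the mean of the 10 stromal progenitor libraries, and that of the 10 myeloma libraries 0.00930%. Slurp1, another transcript abundant in stromal progenitors, stood at 0.0297% and 0.0224% of its stromal progenitor mean in the same libraries. Has1, also highest in stromal progenitors, stood higher, at 0.120% and 0.0742%, so these shares were not the same for every gene. Whether reads this few came from the sorted cells themselves was not tested.

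Over both groups of mice the order of the cell types for Npy was therefore stromal progenitors, osteoprogenitors, endothelial cells and myeloma cells. Npy in stromal progenitors was higher than in endothelial cells by 10.40 on the log2 scale, and the lowest stromal progenitor library (1439 RPKM) lay above the highest endothelial library (1.80 RPKM). This is given with no test, since Npy was above the level at which genes were tested mainly through the progenitors. Of the 12683 genes tested between these cell types in limma on all 38 libraries, 25.5% passed. Differences that include the osteoprogenitors hold the libraries for which Npy was chosen and are given with no test. Averaged over both groups of mice, osteoprogenitors minus stromal progenitors came to -4.77, which was -2.47 in healthy mice only and -7.07 in myeloma-bearing mice only. Osteoprogenitors minus endothelial cells came to 5.63. Of all genes, 8.48% passed between the 2 progenitor types and 27.9% between osteoprogenitors and endothelial cells.

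In the order of the 8 groups by mean, from stromal progenitors of healthy mice at 2692 RPKM to myeloma cells of the central marrow at 0.160 RPKM, the ranges of every group and the next overlapped. The change in stromal progenitors minus the change in endothelial cells was 0.22 on the log2 scale, given with no test, because the endothelial values lay near the lowest level that reads can show and Npy entered that comparison through its level in stromal progenitors. Of the 10596 genes compared in this way, 0% passed.

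The genes whose pattern was most like that of Npy over the 38 libraries were Slurp1 (a secreted Ly6 family protein, Pearson r = 0.965), Has1 (hyaluronan synthase, 0.965), Pcolce2 (an enhancer of procollagen processing, 0.944), Dkk3 (a Dickkopf family protein, 0.944) and Igfbp6 (an insulin-like growth factor binding protein, 0.939). These values rest on cell types sorted apart, with several libraries of each, and describe likeness over 12682 genes with no test. All 5 genes were highest in stromal progenitors. Slurp1 averaged 3173 and 2045 RPKM there (healthy and myeloma-bearing), 256 and 83.5 RPKM in osteoprogenitors and under 1 RPKM in endothelial and in myeloma cells.

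After group means were subtracted, so that only the scatter between libraries of the same group counted, the most similar genes were Has1 (r = 0.885), Bmp7 (a bone morphogenetic protein, 0.784), Gpr37l1 (a G protein-coupled receptor, 0.772), C530008M17Rik (0.718) and Gal3st1 (a sulfotransferase, 0.708). The last 4 averaged at most 0.114 RPKM in every group other than the osteoprogenitors, so that their r describes mainly the scatter among those 8 libraries. Has1 in osteoprogenitors stood at 10.9 RPKM in L, 47.7 in M, 0.0590 in N and 55.2 in O of healthy mice. It stood at 0.330 RPKM in D, 4.76 in G, 40.9 in I and 16.9 in J of myeloma-bearing mice. In both groups the library with most Has1 was the library with most Npy, and the order of Has1 and Npy was the same but for G and J.

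Within the 8 osteoprogenitor libraries alone the 5 genes most like Npy were Dap3 (a mitochondrial ribosomal protein, r = 0.952), Ppt2 (a lysosomal thioesterase, 0.950), Epc1 (a chromatin protein, 0.942), Mlec (an endoplasmic reticulum lectin, 0.940) and Mmadhc (a cobalamin trafficking protein, 0.935). With 8 libraries and 8663 genes compared, correlations of this size describe these libraries only. All 5 genes were lowest in library D, where Mmadhc stood at 7.65 RPKM against 61.7 to 287 RPKM in the other 7.

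Other transcripts of the stromal progenitor type were set beside Npy in each osteoprogenitor library as a percentage of their stromal progenitor mean. Npy came to 14.2% in L, 42.2% in M, 2.70% in N and 84.1% in O of healthy mice. It came to 0.00786% in D, 0.806% in G, 4.72% in I and 0.637% in J of myeloma-bearing mice. Ly6a, the gene of the Sca1 antigen that the osteoprogenitor gate excluded, came to 6.81%, 0.0791%, 0.0705% and 4.62% in L, M, N and O, and to 2.27%, 2.54%, 0.399% and 1.34% in D, G, I and J. In library M the 5 genes most like Npy came to 14.5% (Slurp1), 39.1% (Has1), 53.0% (Pcolce2), 37.7% (Dkk3) and 30.2% (Igfbp6). In library D they came to 1.91%, 0.271%, 6.67%, 1.14% and 3.90% in the same order. The part of carried-over stromal progenitors in these values was not tested.

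**Figure D3:**
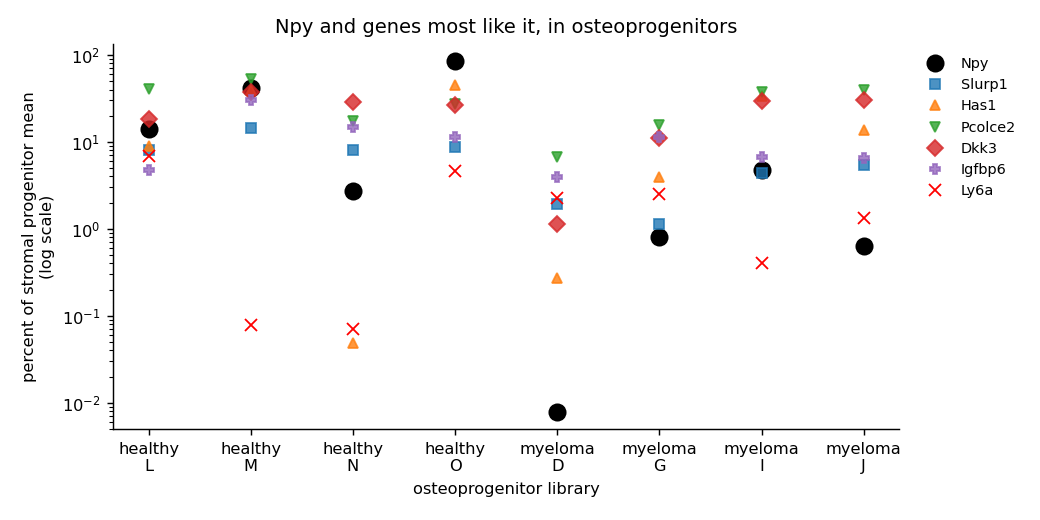
Npy, the 5 genes most like it over all libraries, and Ly6a in each osteoprogenitor library, as a percentage of the mean of the 10 stromal progenitor libraries on a log axis. Npy ranges from 0.00786% (D) to 84.1% (O). Has1 also ranges widely, from 0.0484% (N) to 45.3% (O), while Slurp1 stays between 1.14% and 14.5%.

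The whole stromal progenitor marker list (6 of 6 genes measured, none at 0 throughout) summed to 148 to 545 RPKM in osteoprogenitors of healthy and 244 to 460 RPKM in those of myeloma-bearing mice. Its lowest library was M, which ranked second for Npy among the healthy. The 10 osteoprogenitor markers summed to 8349 to 52103 RPKM in healthy and 28627 to 64512 RPKM in myeloma-bearing mice, with library D at the top and 3 of the 4 healthy libraries below every myeloma-bearing library. The nerve and Schwann cell list (7 of 15 genes measured here, none at 0 throughout) summed to 105 to 442 and 157 to 277 RPKM, mostly S100b, and library O, highest for Npy, was the lowest. The megakaryocyte and platelet list (4 of 8 measured here) came to at most 6.08 RPKM in osteoprogenitors and 9.35 RPKM in stromal progenitors. The neutrophil list (6 of 10 measured here) summed to 44.2 to 94.0 RPKM in healthy and 1.25 to 47.4 RPKM in myeloma-bearing mice, with Ngp at 0 in the latter. The part of these markers in the Npy values was not tested.

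Penk, in contrast, was even in no niche cell type. In endothelial cells of healthy mice it stood at 628 RPKM in library C, 0.242 in L, 87.1 in M, 0.766 in N and 15.3 in O. The reads behind these values were 15345, 6, 2879, 23 and 525. In myeloma-bearing mice libraries D, E, G and I were listed at 0 reads and J held 5 reads (0.103 RPKM). The groups did not overlap, although healthy library L and myeloma-bearing library J differed by a single read. A count of 0 allows up to 3 reads, which is 0.114 to 0.158 RPKM in the libraries listed at 0.

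Library C held 81.7% of the 18778 Penk reads of the healthy group, where Penk was its 99th gene by RPKM. The mean was 146 ± 271 RPKM (SD, n = 5) in healthy and 0.0205 ± 0.0459 RPKM (SD, n = 5) in myeloma-bearing mice, and the healthy mean was 25.9 RPKM without library C. The log2 difference on log2(RPKM + 1) was -4.16, between -5.12 and -2.88 when any library was left out and -8.62 with voom on all 38 libraries, and it is the difference on which Penk was chosen. The 0% of genes that passed in endothelial cells was taken over genes that did not include Penk, which was above 1 RPKM in 3 of the 10 libraries.

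Leaving out libraries I and J, which carried the mature osteoblast transcripts, left the difference at -4.18, and both libraries were on the low side for Penk. The adipocyte list (4 of 8 markers measured here) summed to 100 to 702 RPKM in endothelial cells of healthy and 41.6 to 407 RPKM in those of myeloma-bearing mice, with library C the highest. The pericyte and smooth muscle list (7 of 9 measured here) summed to 333 to 744 and 130 to 898 RPKM, with C again the highest of the healthy libraries. The nerve and Schwann cell list summed to 96.8 to 506 RPKM in healthy and 96.0 to 232 RPKM in myeloma-bearing mice, C being the lowest of the healthy libraries, and Prph and Mbp were at 0 in every endothelial library. The erythroid list (4 of 12 measured here) summed to 0 to 13.4 RPKM in healthy and 0.0310 to 108 RPKM in myeloma-bearing mice, with medians of 10.6 and 59.2 RPKM. The part of these markers in the Penk values was not tested.

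Within the 10 endothelial libraries the genes most like Penk were Tk2 (mitochondrial thymidine kinase, r = 0.941), Pigc (an enzyme of glycosylphosphatidylinositol anchor synthesis, 0.917), Foxred1 (a complex I assembly factor, 0.901), Rpusd4 (a mitochondrial pseudouridine synthase, 0.901) and Maz (a zinc finger transcription factor, 0.893), out of 7879 compared. Pigc stood at 46.2 RPKM in C, 41.2 in M and 11.5 in O, and at 0.0345 and 0 RPKM in L and N. All 5 genes were higher in the healthy libraries C, M and O, the 3 with most Penk, than in any other endothelial library, and at most 0.0789 RPKM in L and N. Given 10 libraries and so many genes, these values are a description.

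In stromal progenitors Penk stood at 26.5 RPKM in C, 0 in L, 7.60 in M, 8.21 in N and 0.475 in O of healthy mice. It stood at 0 RPKM in D, 0.682 in E, 32.6 in G, 0.170 in I and 0.160 in J of myeloma-bearing mice. Library G held 769 Penk reads, while the other 4 libraries of its group held at most 25. The ranges overlapped, and the highest of all 10 libraries was in the myeloma-bearing group.

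The means were 8.55 ± 10.7 and 6.72 ± 14.5 RPKM (SD, n = 5 each), the latter 0.253 RPKM without library G. The log2 difference of -1.08 (standard error 1.15, 95% interval -3.49 to 1.34) did not pass in limma (adjusted p = 0.988). The exact two-sided permutation test gave p = 0.437 (adjusted p = 0.533), where 0.00794 is the smallest p it allows with 5 libraries against 5. Both directions, up to more than 1 log2 unit, lie inside this interval.

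In osteoprogenitors Penk stood at 12.4 RPKM in L, 3.76 in M, 4.50 in N and 166 in O of healthy mice. It stood at 0 RPKM in D, 27.8 in G, 0.0445 in I and 115 in J of myeloma-bearing mice. Every healthy library held at least 67 reads, whereas D and I held 0 and 1. The myeloma-bearing group thus held the 2 lowest of the 8 libraries and also the 2 next below healthy library O.

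The means were 46.7 ± 79.6 and 35.7 ± 54.4 RPKM (SD, n = 4 each), and they were 6.89 RPKM without healthy library O and 9.28 RPKM without myeloma-bearing library J. The log2 difference of -1.02 (standard error 1.53, 95% interval -4.29 to 2.26) did not pass in limma (adjusted p = 0.998) and turned to 0.12 without library O. The exact two-sided permutation test gave p = 0.657 (adjusted p = 0.657), where 4 libraries against 4 cannot go below 0.0286.

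Myeloma cells were listed at 0 Penk reads in all 5 libraries of the bone lining and in 3 of 5 of the central marrow, and the other 2 held 2 reads each. The exact permutation test gave p = 0.444 (adjusted p = 0.533) for a difference of -0.04 on the log2 scale. In this comparison 0.203% of the 8857 genes tested in limma passed, and both Npy and Penk were below the level at which genes were tested.

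The order of the groups by mean Penk was endothelial cells of healthy mice (146 RPKM), osteoprogenitors of healthy and of myeloma-bearing mice (46.7 and 35.7 RPKM), stromal progenitors of both (8.55 and 6.72 RPKM), and then central marrow myeloma cells, endothelial cells of myeloma-bearing mice and bone lining myeloma cells, all under 0.1 RPKM. Each group's range overlapped that of the next.

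Between the 2 progenitor types, with both groups of mice averaged, Penk did not pass. Osteoprogenitors minus stromal progenitors came to 1.66 on the log2 scale (95% interval -0.32 to 3.64, adjusted p = 0.412 in limma). This interval rests on a spread shared by all 38 libraries, which include groups with almost no Penk. The SDs of the progenitor groups themselves were 1.99 to 3.46, so it may be too narrow for them. Differences from the endothelial cells hold the libraries for which Penk was chosen and are given with no test. Osteoprogenitors minus endothelial cells came to 1.34, which was -0.22 in healthy mice only. Stromal progenitors minus endothelial cells came to -0.32, which held opposite directions, -1.85 in healthy mice only and 1.22 in myeloma-bearing mice only. It also turned with voom (0.65), with a pseudocount of 0.1 (0.18) and without the libraries lettered C (0.0175).

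The change of Penk in stromal progenitors minus its change in osteoprogenitors was -0.06 (95% interval -4.33 to 4.21, adjusted p = 1.000 in limma), and 0% of the 10735 genes in that test passed. Its direction turned in 7 of 18 alternatives, for example to 1.19 with voom and to 1.51 without the libraries lettered J. Whether the changes in the 2 progenitor types were alike is not shown by an interval this wide.

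Penk was scattered between libraries of the same group in both progenitor types. The SD of log2(RPKM + 1) within groups was 2.07 in stromal progenitors and 2.97 in osteoprogenitors, and 88.0% and 99.8% of all genes tested there had a smaller SD. In endothelial cells, the libraries on which Penk was chosen, the SD was 3.80 in healthy and 0.0630 in myeloma-bearing mice, where 4 of 5 libraries were at 0.

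Over all 38 libraries no gene followed Penk as closely as those most like Npy followed Npy. The closest were Tmtc2 (r = 0.692), Ldhb (lactate dehydrogenase B, 0.610), Leprel1 (a prolyl hydroxylase of collagen, 0.606), Fetub (0.594) and Echdc1 (0.590). After group means were subtracted they were Tmtc2 (0.749), Fam84b (0.729), Elf4 (an ETS family factor, 0.686), Tnnc2 (a troponin C, 0.675) and Ube2g2 (a ubiquitin-conjugating enzyme, 0.674). Npy and Penk themselves had r = 0.254 over the 38 libraries, which share cell types, and 0.186 after group means were subtracted.

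The pathway around both peptides was followed through 94 further genes in 5 lists, of which 44 were measured here. Of the receptors of neuropeptide Y, Npy1r was measured. In endothelial cells of healthy mice it averaged 13.3 ± 18.7 RPKM (SD, n = 5) with a median of 0 and a highest library of 39.2 RPKM, and it averaged 0.872 RPKM in those of myeloma-bearing mice. It averaged at most 1.05 RPKM in every other group. Npy1r was called lower in osteoprogenitors than in endothelial cells (log2 difference -1.27 in limma), and the high endothelial libraries were a minority. In no niche cell type alone was Npy1r above 1 RPKM in at least 4 libraries. It entered the fit of all 38 libraries through a few of them, so this difference describes where it was detected. The call was not made in 4 of 10 other settings, which were voom-limma, the libraries of these 2 cell types alone, and healthy or myeloma-bearing mice alone.

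Of the opioid list Pomc, the precursor of beta-endorphin, and the growth factor receptor genes Ogfr and Ogfrl1 were measured, and the classical opioid receptors were not analysed here. Pomc averaged 10.3 ± 7.03 and 7.80 ± 1.26 RPKM (SD, n = 5 each) in myeloma cells of the bone lining and central marrow. Ogfr averaged 8.32 ± 15.0 RPKM (SD, n = 5) in endothelial cells of healthy and 26.4 ± 12.3 RPKM (SD, n = 5) in those of myeloma-bearing mice. Its log2 difference of 2.92 (standard error 1.20) did not pass (adjusted p = 0.922 in limma), whereas voom-limma on all 38 libraries called it.

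No gene of these lists passed between healthy and myeloma-bearing mice, 0 of 24 tested in endothelial cells, 0 of 32 in stromal progenitors and 0 of 30 in osteoprogenitors, nor did any of 20 between the 2 sites of myeloma cells. Voom-limma on all 38 libraries called 2 of the lists' genes in endothelial cells, Ogfr and Npff, among 250 genes called in all. The background shares were 0%, 0%, 0.0115% and 0.203% of all genes, so that counts of 0 in lists this short carry little. Over all genes, 414, 437, 422 and 530 had an unadjusted p below 0.05 in these comparisons. The median log2 difference over the lists was -0.05 in endothelial cells, 0.18 in stromal progenitors, 0.21 in osteoprogenitors and -0.20 in myeloma cells, against 0.07, -0.00, -0.03 and -0.01 over all genes.

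The 2 members with the widest difference in each list that had genes tested are given for size only. In endothelial cells these were, besides Ogfr, Npff (2.03), Xpnpep1 (2.01), Prep (1.35), Nmb (-1.29), Furin (-1.23), Cpd (-1.05) and Ogfrl1 (0.91). In stromal progenitors they were Agt (2.51), Kng1 (2.05), Dpp7 (1.48), Pcsk5 (1.37), Lnpep (-1.35), Scg3 (1.02), Ogfr (0.75) and Ogfrl1 (0.11). In osteoprogenitors they were Nmb (-2.81), Kng1 (2.19), Pomc (-1.98), Xpnpep1 (1.65), Dpp3 (1.60), Pcsk5 (-1.03), Cpe (0.46) and Ogfrl1 (-0.32). None of these log2 differences passed in limma, and the smallest adjusted p of any list gene in these comparisons or between the myeloma cell sites was 0.890.

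Of the 10 processing and granule genes, 4 were higher and 1 lower in osteoprogenitors than in endothelial cells, beside 17.5% and 10.4% of all genes. In stromal progenitors 6 were higher and 0 lower, beside 15.5% and 9.97% of all genes. Cpe, the carboxypeptidase that trims both precursors, averaged 820 and 1128 RPKM in osteoprogenitors (healthy first, then myeloma-bearing), 227 and 294 RPKM in stromal progenitors and 51.7 and 29.8 RPKM in endothelial cells. It was higher in osteoprogenitors than in stromal progenitors by 1.95 (adjusted p = 0.0649) and higher than in endothelial cells in both, by 5.81 and 3.85. Pam, the amidating enzyme, was higher than in endothelial cells by 1.77 in osteoprogenitors and by 2.65 in stromal progenitors. The proprotein convertase gene Pcsk6 was higher by 5.74 and 4.75, and the neuroendocrine convertase Pcsk2 was higher in stromal progenitors than in endothelial cells by 1.06. Neither Pcsk6 nor Pcsk2 was above 1 RPKM in at least 4 endothelial libraries, so these differences describe mainly where they were detected.

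Scg3, a secretory granule protein, was lower in osteoprogenitors than in stromal progenitors (log2 difference -3.69), the same direction as Npy. Among the niche cell types, Scg3 and Pcsk2 were above 1 RPKM in at least 4 libraries of the stromal progenitors only. Their differences from the other niche cells therefore describe where they were detected. With healthy mice only Scg3 was the single gene of the lists that passed between the progenitor types. The direction of Cpe was opposite to that of Scg3. In the processing list 1 of 10 genes was higher and 2 were lower in osteoprogenitors, the latter being Scg3 and Pcsk2 (-1.11). Of all genes 4.9% were higher and 3.58% lower, so counts this small carry little.

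Over all 5 lists, 4 of 44 genes were higher and 5 lower in osteoprogenitors than in stromal progenitors, where 4.9% and 3.58% of all genes were. Apart from those above they were Gal (galanin, 4.33), Fap (2.10) and Mme (neprilysin, 1.64) on the higher side, and the peptidases Ece1 (-2.54), Anpep (-2.07) and Enpep (-1.92) on the lower. Mme (adjusted p = 0.0991 in limma) was called in only 3 of 10 other settings. Enpep and Pcsk2 were called in 6 of them, Cpe and Fap in 7, Gal, Ece1 and Anpep in 9 and Scg3 in 10. Gal averaged 32.2 and 124 RPKM in osteoprogenitors and was listed at 0 in all 10 stromal progenitor libraries, whereas Npy was highest in those. Gal was above the level at which genes were tested mainly through the osteoprogenitors, so its differences from the other niche cells describe where it was detected.

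Against endothelial cells, 12 of 44 genes were higher and 6 lower in osteoprogenitors, beside 17.5% and 10.4% of all genes. The higher ones included the peptidases Fap (6.61), Dpp7 (2.45) and Mme (2.37), the peptide genes Gal (4.30), Pthlh (4.08), Kng1 (3.28), Agt (3.22) and Nucb2 (2.54), and Qpct (2.87). The lower ones were Ece1 (-4.66), Edn1 (-4.52), Ace (-2.62), Apln (-1.64), Ctsl (-1.50) and Npy1r. In stromal progenitors 14 were higher and 4 lower, beside 15.5% and 9.97% of all genes. The higher ones, besides Cpe, Pam, Pcsk6 and Pcsk2, were Pthlh (5.66), Fap (4.51), Scg3 (4.07), Nucb2 (3.44), Anpep (2.83), Qpct (2.56), Dpp7 (2.23), Kng1 (1.71), Lnpep (1.46) and Dpp4 (1.36), the last being the enzyme that trims neuropeptide Y. The lower ones were Edn1 (-3.69), Ace (-2.22), Ece1 (-2.12) and Apln (-1.65). Of these calls between stromal progenitors and endothelial cells, those of Dpp4 and Lnpep were made in 5 of 10 other settings, that of Pcsk2 in 7, and the others in 8 or more. Between osteoprogenitors and endothelial cells every call but that of Npy1r was made in 9 or 10 of 10 other settings. Fap, Mme, Gal, Pthlh, Kng1, Qpct, Scg3, Anpep, Lnpep and Dpp4 were not above 1 RPKM in at least 4 endothelial libraries. Pcsk6, Pcsk2 and Npy1r were not either. Edn1 and Apln did not reach that level in either progenitor type, nor Ace in osteoprogenitors. Differences of these genes from endothelial cells describe mainly where they were detected.

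**Figure D4:**
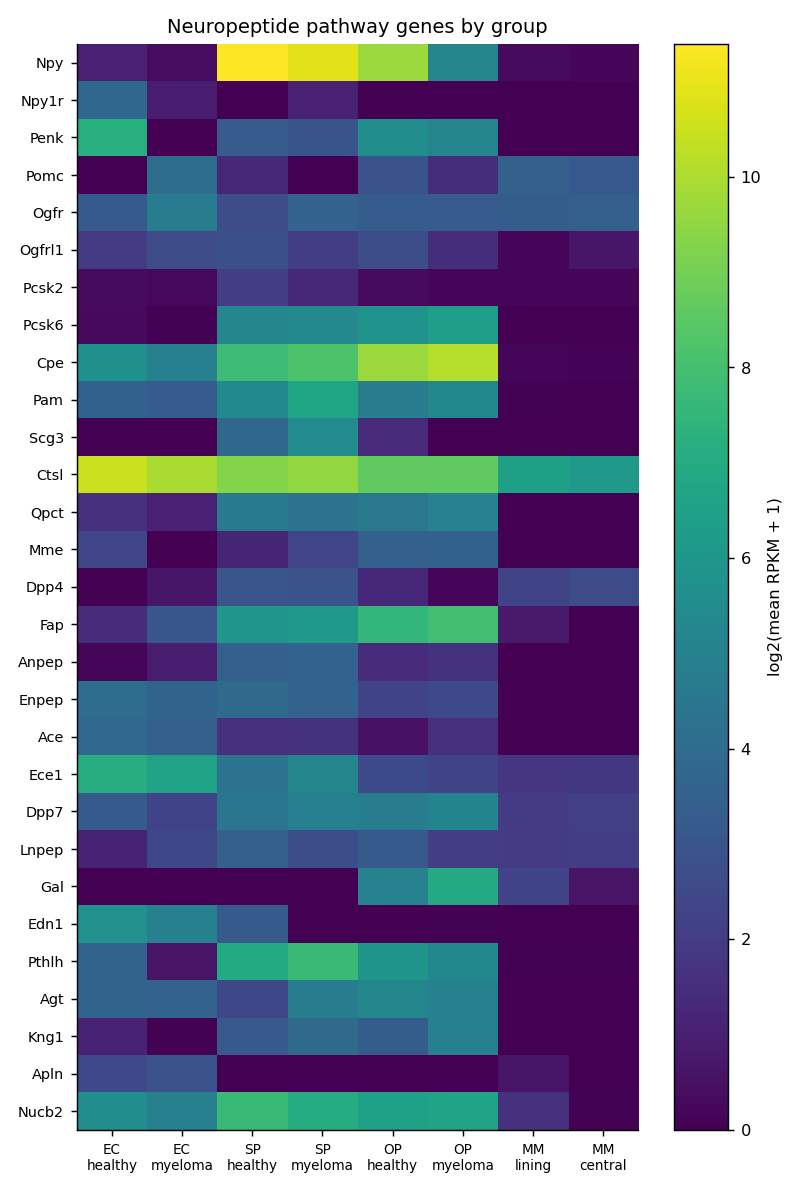
Mean level of Npy, Penk and 27 further pathway genes by group (columns, abbreviated as EC for endothelial cells, SP for stromal progenitors, OP for osteoprogenitors and MM for myeloma cells), as the log2 of the mean RPKM plus 1. Npy is brightest in SP, at 2692 and 1913 RPKM, Cpe in OP and Gal appears in OP, while Penk is brightest in EC of healthy mice, where a single library carries most of it.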

How the data were processed

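The authors mapped single-end reads with STAR 2.4.0 to GRCm38, counted them over genes with featureCounts (Subread 1.4.5-p1), kept genes above a minimum level and deposited RPKM values made with edgeR. Those RPKM values were analysed for all 38 libraries. Whole reads per gene were recovered for 13260 of 13260 genes (tolerance 0.0001), and amplified copies were not collapsed, so the limit of 3 reads behind a count of 0 covers counting error only, while the 95% intervals rest on the spread between libraries. With R 4.3.3, limma 3.58.1 with a mean trend was fitted to log2(RPKM + 1) over genes above 1 RPKM in at least 4 libraries of a fit, and a call needed an adjusted p (Benjamini-Hochberg) under 0.1 with a log2 difference over 1 in size. This scale understates changes of low genes. Exact two-sided permutation tests (SciPy 1.17.1) were adjusted over 6. The study's own voom-limma approach was an alternative, run on the recovered reads. Both scripts were tested on simulated data.

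Members and lists were chosen with earlier results of these data known, so Npy in osteoprogenitors and Penk in endothelial cells, differences between cell types that hold those libraries, and Npy between stromal progenitors and endothelial cells are given with no test. Genes named were both members, list genes that passed, the 2 widest per list and comparison, and the 5 most alike by Pearson r. Replicates were stated to be different mice. Letters shared between cell types were used as a block only in alternatives, since deviations of same-letter libraries correlated at -0.0427 to 0.0850, under 0.1. Leaving out libraries with osteoblast or neutrophil transcripts was chosen after seeing the data.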

Additional observations from a re-analysis of the deposited data

Results flagged for a closer look

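Of 15 groups of 4 or 5 libraries examined for a library far from the others, 2 held one, and chance alone flags about 1 in 20 groups. Penk in endothelial cells of myeloma-bearing mice stood at 0.103 RPKM in library J, from 5 reads, with the other 4 at 0. Any value above 0 would stand apart from 4 values at 0, and Penk was chosen on these libraries, so this is a description and the chance rate does not apply to it. Penk in stromal progenitors of myeloma-bearing mice stood at 32.6 RPKM in library G, from 769 reads, and the other 4 libraries were between 0 and 0.682 RPKM.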

How the results depend on the processing

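Of 377 recomputed values, 359 counted as the same by the rule for their kind. For Npy in osteoprogenitors and Penk in endothelial cells this meant a shift below the SD within groups. For list genes called it meant an unchanged count. For the other differences it meant the same direction and the same result against the threshold, including differences given here with no test. Npy, osteoprogenitors minus stromal progenitors, given with no test, was -2.47 in healthy mice only against -4.77. Directions turned for Penk in osteoprogenitors with array weights (0.45), Penk, osteoprogenitors minus endothelial cells, in healthy mice only (-0.22), and Penk, stromal progenitors minus endothelial cells, with a pseudocount of 0.1 (0.18), voom (0.65) or myeloma-bearing mice only (1.22). The difference of the Penk changes turned with a pseudocount of 0.1 (0.59) and voom (1.19). Without 1 library or letter at a time, the values ranged from -2.32 to 0.12 for Penk in osteoprogenitors, -1.64 to 1.51 (the latter without J) for the difference of the Penk changes (0.55 without C, 0.07 without E, 0.70 without M, 0.66 without N), -0.84 to 0.0175 (without C) for Penk in stromal progenitors minus endothelial cells, and -0.11 (without C) to 0.36 for the difference of the Npy changes. They ranged from -5.96 to -3.78 for Npy in osteoprogenitors and from -5.12 to -2.88 for Penk in endothelial cells, which was -8.62 with voom on all 38 libraries, a fit that also called 2 list genes in endothelial cells (Npff and Ogfr). The causes were not tested. The letter as a replicate block changed no call for Npy or Penk (Penk, osteoprogenitors minus stromal progenitors, 1.67 with the block against 1.66), and no letter pairing is stated in the labels.

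Counts of all genes called moved more. Fitting all 38 libraries called 150, 28, 24 and 23 genes in endothelial cells, stromal progenitors, osteoprogenitors and myeloma cells, and voom on all 38 called 250, 73, 26 and 10, against 0, 0, 1 and 18. No trend gave 3, 1, 2 and 12, no filter 2, 0, 0 and 1, voom 4, 0, 0 and 8, array weights 0, 0, 2 and 20, and a pseudocount of 0.1 or the replicate block 12 in myeloma cells. Leaving out 1 library gave 10 to 24 in myeloma cells and at most 1 in the progenitors, as did leaving out stromal progenitors L and E. The difference of changes in stromal progenitors and endothelial cells had 12 calls in the fit of all 38, and that in the 2 progenitor types 16, against 0. With healthy mice only, cell types differed in 215, 1669 and 1637 genes against 1075, 3535 and 3231. Scaling by total reads shifted the median gene from 0.12 to -0.02 for stromal progenitors minus endothelial cells (1507 higher and 1673 lower, against 1967 and 1264) and from 0.02 to 0.14 for osteoprogenitors minus stromal progenitors (699 and 321, against 621 and 454). Reads limit Npy in endothelial and myeloma cells, where at most 17 were counted in a library.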
